A study of Homo sapiens with 24 samples.

Results

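The plasminogen activators, their receptor and the serpin inhibitors around them were followed through the butyrate response of a colorectal cancer cell clone in which Wnt signaling can be repressed. The genes were chosen by name, as the 9 genes PLAU, PLAT, PLAUR, SERPINE2, SERPINB2, SERPINB5, SERPINB6, SERPINB8 and ST14, out of 27274 gene names on the array. They are read by 11 of the 34127 probes that are not controls, and these 11 probes fill 29 spots, since the first probes for PLAU and PLAT are each printed in 10 spots. All 9 genes entered the tests, which took 18969 probes in all. The choice of genes was made with earlier results of these data known. The shares of all probes set beside counts of members are therefore a background and not a test.

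The cells were HCT-116, a human colorectal cancer line, and all groups came from a single stably transfected clone that carries a Tet repressor and a doxycycline-inducible DN-Tcf4, a truncated Tcf4 that cannot bind beta-catenin and so blocks Wnt target genes. Ctl cells received neither agent, NaB cells received 5 mM sodium butyrate, Doxy cells received 4 µg/ml doxycycline, and DoxyNaB cells received both, with doxycycline given first and 17.5 hr of the later treatment before harvest. Each of 6 experiments gave 1 array per treatment, so that there were 24 arrays of 1 colour and 6 per treatment. The study set the response to butyrate without doxycycline (NaB/Ctl) beside the response with it (DoxyNaB/Doxy), and here the difference between the 2 responses was tested as well.

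Urokinase (PLAU) and tissue-type plasminogen activator (PLAT) cut the inactive zymogen plasminogen into plasmin, a serine protease that digests fibrin and, directly or through other proteases, extracellular matrix. Urokinase binds a glycolipid-anchored receptor (PLAUR), which holds the activity at the cell surface, and matriptase (ST14), a membrane-bound serine protease of epithelia, can activate the urokinase precursor. Serpins trap such proteases by offering a reactive loop, and the clade B serpins lack a classical signal peptide and work largely inside cells. In colorectal tumours the urokinase system is known mainly for its part in invasion, and PLAUR and PLAU have been described as Wnt-responsive genes.

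The probe sequences show which stretch of each transcript a value reports, and those of the genes with the largest differences follow, from the deposited files, 5′ to 3′, with no letter marked by capitals. For PLAU and SERPINB6 a second probe allows the value to be checked on another stretch of the same gene. The coordinates are those of the files, on NCBI36. The second PLAU probe lies at chr10:75344620-75344679 on the plus strand, and the first at chr10:75347056-75347115. The PLAUR probe lies at chr19:48861338-48861397 and the first SERPINB6 probe at chr6:2893531-2893590, both on the minus strand. The SERPINB2 probe lies at chr18:59721182-59721241 on the plus strand. The 60 bases of the other probes are spread over a longer stretch of the genome, namely chr2:224548841-224550539 (minus strand) for SERPINE2, chr6:2899897-2900770 (minus strand) for the second SERPINB6 probe and chr18:59798117-59799958 (plus strand) for SERPINB8.
PLAU second probe: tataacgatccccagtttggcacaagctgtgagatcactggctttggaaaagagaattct
PLAUR: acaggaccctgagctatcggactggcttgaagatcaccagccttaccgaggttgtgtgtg
SERPINE2: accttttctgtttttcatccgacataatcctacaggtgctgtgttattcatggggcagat
SERPINB2: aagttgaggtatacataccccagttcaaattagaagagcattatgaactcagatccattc
SERPINB6 first probe: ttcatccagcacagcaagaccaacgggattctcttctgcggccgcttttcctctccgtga
SERPINB6 second probe: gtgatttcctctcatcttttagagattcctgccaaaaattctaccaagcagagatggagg
SERPINB8: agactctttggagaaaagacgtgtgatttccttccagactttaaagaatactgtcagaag

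The 250 bases before the annotated transcript starts were searched, on both strands, for the GC box GGGCGG, for the AP-1 words TGACTCA and TGAGTCA and for the TCF/LEF words CTTTGAA and CTTTGAT as well as CTTTGTA and also CTTTGTT. RefSeq windows on GRCh38.p14 were at hand for 7 of the 9 genes, 12 windows in all. The windows are shown for PLAU, which has 2 starts with different words, for PLAUR and SERPINB8, which among these 7 have an AP-1 word, and for SERPINB2, which was called in both butyrate comparisons and has none of the words. Capitals mark the matches. The first PLAU window, chr10:73910360-73910609 on the plus strand, has a TCF/LEF word 225 and 50 bases before the start. The second, chr10:73910882-73911131 on the plus strand, has GC boxes 66, 51 and 40 bases before the start. PLAUR, chr19:43670170-43670419 on the minus strand, has an AP-1 word 186 bases before the start, and SERPINB8, chr18:63969831-63970080 on the plus strand, has one 28 bases before the start. SERPINB2 is chr18:63887455-63887704 on the plus strand.
PLAU window 1: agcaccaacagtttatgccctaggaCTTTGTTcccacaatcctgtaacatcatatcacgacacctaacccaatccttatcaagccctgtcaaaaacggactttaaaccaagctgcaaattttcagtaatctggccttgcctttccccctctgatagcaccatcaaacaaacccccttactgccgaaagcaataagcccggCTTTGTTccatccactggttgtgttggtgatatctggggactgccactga
PLAU window 2: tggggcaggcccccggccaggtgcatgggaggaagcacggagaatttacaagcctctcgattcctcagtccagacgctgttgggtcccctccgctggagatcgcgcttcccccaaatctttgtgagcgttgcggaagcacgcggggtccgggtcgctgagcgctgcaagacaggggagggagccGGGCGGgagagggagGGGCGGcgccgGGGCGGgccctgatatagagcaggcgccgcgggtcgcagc
PLAUR window: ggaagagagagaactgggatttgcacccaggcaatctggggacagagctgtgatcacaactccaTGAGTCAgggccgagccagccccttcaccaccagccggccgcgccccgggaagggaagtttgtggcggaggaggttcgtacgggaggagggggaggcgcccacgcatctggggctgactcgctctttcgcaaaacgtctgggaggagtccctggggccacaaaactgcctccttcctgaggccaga
SERPINB8 window: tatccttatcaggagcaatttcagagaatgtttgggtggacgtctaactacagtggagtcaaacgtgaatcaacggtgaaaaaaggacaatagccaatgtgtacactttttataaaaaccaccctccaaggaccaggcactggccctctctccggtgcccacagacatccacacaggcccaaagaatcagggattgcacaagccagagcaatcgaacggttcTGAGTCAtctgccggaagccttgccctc
SERPINB2 window: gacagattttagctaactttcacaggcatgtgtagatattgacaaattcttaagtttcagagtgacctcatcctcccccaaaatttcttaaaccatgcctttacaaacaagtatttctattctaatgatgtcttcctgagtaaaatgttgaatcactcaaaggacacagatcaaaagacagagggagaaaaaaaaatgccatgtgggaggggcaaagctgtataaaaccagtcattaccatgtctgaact
Of all 35116 windows of this length, 42.64% hold the GC box, 4.2% an AP-1 word and 11.96% a TCF/LEF word. Among the 12 windows of the members, 7 hold a GC box, 2 an AP-1 word and 2 a TCF/LEF word. The SERPINB6 windows chr6:2971277-2971526 and chr6:2971290-2971539 overlap and hold the same GC box. Windows of a gene are therefore not independent counts. A match describes the letters and is not evidence of binding.

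A level is given as log2 processed signal after subtraction of the array's own 75th percentile, also in log2, and it can be compared between arrays for a probe but not between genes. By the software's own test, the share of spots well above background ran from 52.7% to 88.11% over the arrays. It split by scan, with 78.4% to 88.11% in experiments 2 to 4 and 52.7% to 62.6% in experiments 1, 5 and 6. PLAU, PLAT, PLAUR, SERPINE2, SERPINB5, SERPINB6 and ST14 were well above background on all 24 arrays. SERPINB2 was so on 3 of 6 Ctl and 4 of 6 Doxy arrays, and SERPINB8 on 5 of 6 Ctl and 4 of 6 DoxyNaB arrays. The net signal of the negative controls, 63.68 at the median, reached 161 for NaB in experiment 3 and 248.9 for DoxyNaB in experiment 2. All 5 epithelial markers (EPCAM, CDH1, KRT8, KRT18 and KRT19) were well above background on all 24 arrays. The leukocyte and endothelial markers were so on 11 to 23 arrays each, and of 4 fibroblast markers COL3A1 was on none and COL1A1 on all. The summed linear level of the 3 leukocyte markers ranged over 0.0867 to 0.339 in Ctl, 0.431 to 0.853 in NaB, 0.0868 to 0.296 in Doxy and 0.384 to 0.999 in DoxyNaB. For the 3 endothelial markers the ranges were 0.0866 to 0.191, 0.179 to 0.718, 0.105 to 0.241 and 0.194 to 1.03, and for the 4 fibroblast markers 0.267 to 0.501, 0.790 to 1.74, 0.239 to 0.552 and 1.19 to 2.11. The 5 epithelial markers summed to 209 to 298.8, 273.4 to 501, 214.8 to 295.9 and 252.3 to 371.5. The marker sums and negative controls that moved with butyrate were not tested for their part in the results. In experiment 1 the arrays without butyrate were on another slide and in another scan than those with it. For that experiment the effects of slide, scan and butyrate cannot be told apart. For TCF7L2, the gene of Tcf4, 2 of 3 probes were higher in DoxyNaB than in NaB by 2.96 and 4.46 on the log2 scale (limma, adjusted p = 3.65e-05 and 1.77e-06), 1 was lower by a difference of -1.25 (limma adjusted p = 0.0057), and none differed between Doxy and Ctl at an adjusted p under 0.01 (0.618 to 0.921). RNA of the construct and of the cells' own gene cannot be told apart on these probes.

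With butyrate and no doxycycline, PLAU and SERPINB6 fell and SERPINE2 and SERPINB2 rose. A gene was called in NaB/Ctl when its fold change was over 2 and its adjusted p under 0.01 (limma over all probes tested, experiment as a block, two-sided, Benjamini-Hochberg). RNA came from whole cultures, so fewer cells with a transcript and less of it per cell cannot be told apart. Called lower were PLAU by 8.58-fold and SERPINB6 by 3.74-fold, and called higher were SERPINE2 by 4.96-fold and SERPINB2 by 19.9-fold. Only 3 of the 6 Ctl arrays measured SERPINB2 well above background, and it entered the tests through the butyrate groups, where it is high, so its fold is not a firm size and its call adds no support to the count. These 4 of 9 genes compare with 31.7% of all probes tested that were called. At the adjusted p alone 8 of 9 members passed, against 68.3% of all probes, and PLAT did not. The median change of the members was -0.30 on the log2 scale and that of all probes tested was 0.17. The scaling sets part of these values: 65.3% of the called probes were higher with the main scaling, 53.2% with normexp correction, 47.1% with quantile normalization and 21.1% with scaling to the median, where the median of all probes moved to -0.58.

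**Figure D1:**
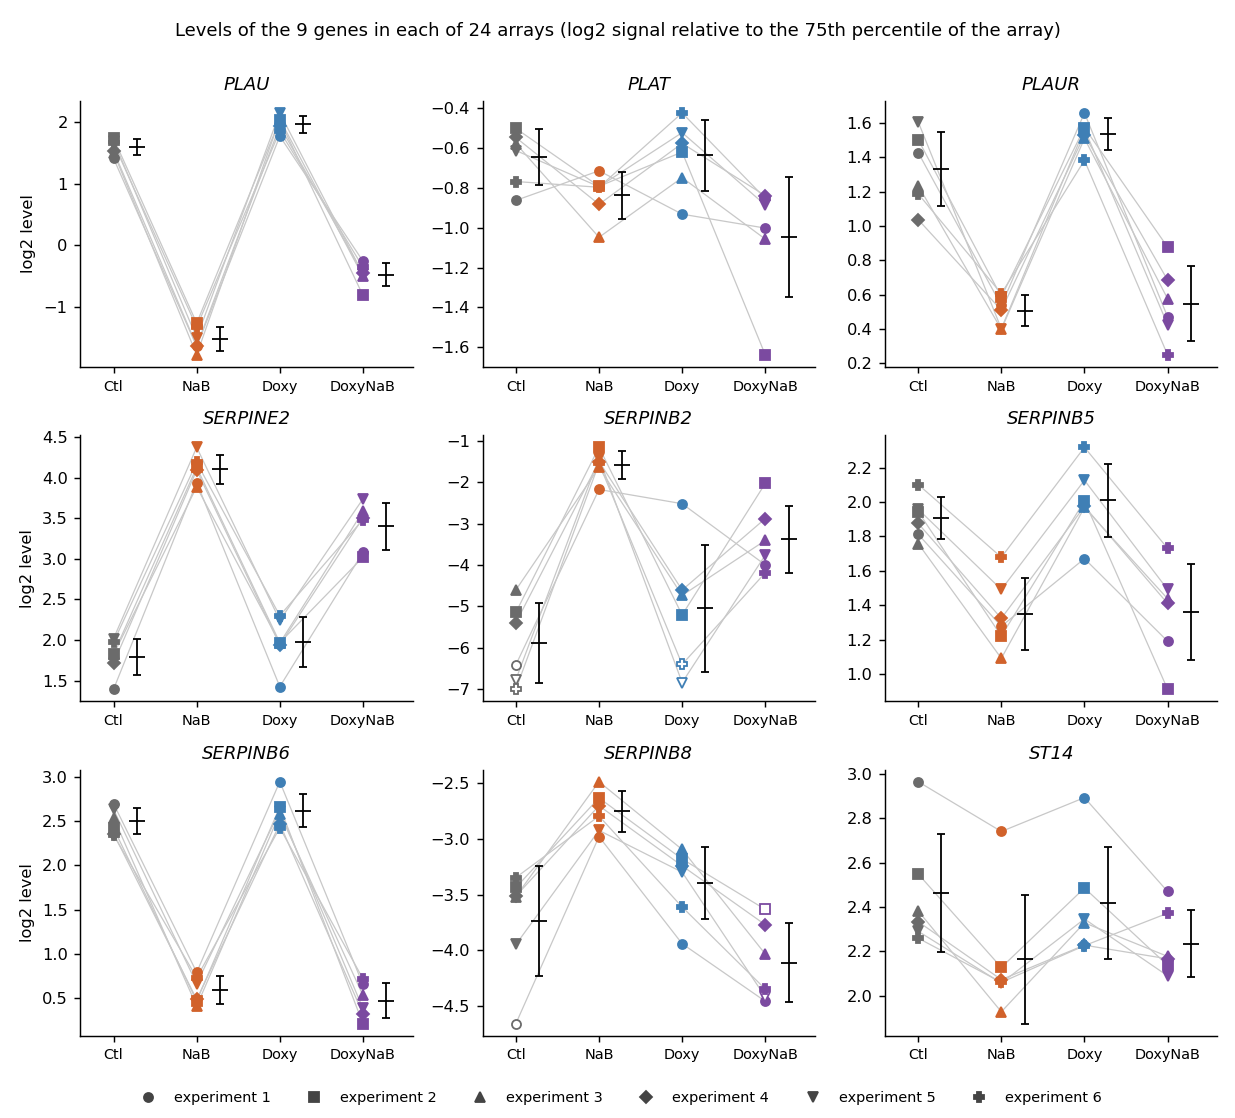
Levels (log2 signal minus the log2 75th percentile of its array, y axis) of the 9 genes under the 4 treatments (x axis), 1 symbol per experiment with grey lines joining an experiment; open symbols were not well above background, and the bars to the right of the points give the mean and SD of 6 arrays. PLAU, PLAUR and SERPINB6 are low and SERPINE2 and SERPINB2 high in the butyrate groups, while SERPINB8 is highest in NaB and lowest in DoxyNaB.

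PLAU, the urokinase activator, had levels of 1.41 at the lowest, 1.59 at the median and 1.73 at the highest in Ctl, and of -1.77, -1.56 and -1.26 in NaB. With doxycycline the levels were 1.77, 1.98 and 2.14 in Doxy and -0.81, -0.46 and -0.25 in DoxyNaB. All 12 arrays without butyrate lay above all 12 arrays with it, and within the butyrate arrays every DoxyNaB array lay above every NaB array. The change was -3.10 ± 0.12 in NaB/Ctl (SD over experiments, n = 6; limma adjusted p = 1.59e-14) and -2.43 ± 0.29 in DoxyNaB/Doxy (n = 6; limma adjusted p = 2.83e-13), downward in 6 of 6 experiments each time. The 10 spots of this probe differed on an array by an SD of 0.0336 to 0.116. The second PLAU probe, printed above, changed by -2.88 ± 0.81 and -2.29 ± 0.53 (n = 6 each; limma adjusted p = 2.70e-09 and 6.40e-08), although 1 of the 6 NaB arrays was not well above background there. Its NaB/Ctl change was -2.15 within experiments 2 to 4 and -3.64 within experiments 5 and 6, which were scanned separately. The part of the scan in this was not tested.

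PLAT, the tissue-type activator, stayed within a narrow band. Its levels were -0.86, -0.59 and -0.50 (lowest, median and highest) in Ctl, -1.05, -0.79 and -0.71 in NaB, -0.93, -0.60 and -0.42 in Doxy and -1.64, -0.94 and -0.84 in DoxyNaB. The groups overlapped in both comparisons with butyrate, and the DoxyNaB array of experiment 2, one of the arrays with high negative controls, lay apart at the low end. The change in NaB/Ctl was -0.19 ± 0.22 (n = 6; limma adjusted p = 0.136) and that in DoxyNaB/Doxy -0.41 ± 0.32 (n = 6; limma adjusted p = 0.0038), the latter with 6 of 6 experiments lower but short of a 2-fold change. The 95% interval of the NaB/Ctl change, -0.44 to 0.05, lies far from that of PLAU, -3.31 to -2.89.

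The receptor PLAUR had levels of 1.04, 1.33 and 1.61 (lowest, median and highest) in Ctl and 0.40, 0.52 and 0.61 in NaB. In Doxy they were 1.38, 1.55 and 1.66, and in DoxyNaB 0.25, 0.52 and 0.88. No array with butyrate reached any array without it. The change was -0.83 ± 0.25 in NaB/Ctl and -0.99 ± 0.20 in DoxyNaB/Doxy (n = 6 each; limma adjusted p = 2.08e-07 and 1.94e-08), with 6 of 6 experiments lower in both, at folds of 1.77 and 1.98 that missed the 2-fold threshold. In DoxyNaB/Doxy the threshold was passed when the 75th percentile was taken over probes in place of spots, at a change of -1.08, and in both comparisons with scaling to the median. In DoxyNaB/Doxy it was also passed without the 2 arrays of high negative controls (-1.04), without experiment 2 (-1.05) or 4 (-1.02) and within experiments 5 and 6 (-1.14). There it was missed with normexp correction (-0.98) and with quantile normalization (-0.83).

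SERPINE2, or protease nexin-1, is a secreted inhibitor of thrombin, urokinase and related proteases. Its levels were 1.39, 1.83 and 2.02 (lowest, median and highest) in Ctl, 3.89, 4.11 and 4.37 in NaB, 1.43, 1.96 and 2.30 in Doxy and 3.02, 3.49 and 3.74 in DoxyNaB. The butyrate arrays lay above all arrays without butyrate, and every NaB array lay above every DoxyNaB array. The gene changed by 2.31 ± 0.16 in NaB/Ctl and by 1.43 ± 0.25 in DoxyNaB/Doxy (n = 6 each; limma adjusted p = 1.40e-13 and 7.83e-11), a fold of 4.96 against 2.69, upward in 6 of 6 experiments in both. With scaling to the median the DoxyNaB/Doxy change was 0.87, under the 2-fold threshold.

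SERPINB2, or plasminogen activator inhibitor 2, had the widest spread of the changes over experiments in both butyrate comparisons. It had levels of -7.00, -5.91 and -4.60 (lowest, median and highest) in Ctl, -2.18, -1.52 and -1.16 in NaB, -6.84, -4.97 and -2.52 in Doxy and -4.19, -3.59 and -2.03 in DoxyNaB. NaB lay above every Ctl array, whereas Doxy and DoxyNaB overlapped through the Doxy array of experiment 1. The change in NaB/Ctl was 4.32 ± 0.95 (n = 6; limma adjusted p = 3.43e-07) with 6 of 6 experiments higher, and with 3 Ctl arrays not well above background its size is poorly fixed. With normexp background correction it was 1.45, against 2.44 for SERPINE2 and -2.62 for PLAU. The NaB/Ctl change of SERPINB2 was 3.62 within experiments 2 to 4 and 5.40 within experiments 5 and 6, which were scanned separately. The change in DoxyNaB/Doxy, 1.67 ± 1.71 (n = 6; limma adjusted p = 0.0057), was higher in 5 of 6 experiments. Without experiment 1 it was 2.30 (limma adjusted p = 2.38e-05). The DoxyNaB/Doxy call was lost with normexp correction (0.71, adjusted p = 0.0558), with quantile normalization (0.81, adjusted p = 0.117) and when arrays were scaled to the median (1.09, adjusted p = 0.0368), and also, at adjusted p of 0.0121 to 0.0407, without any one of experiments 2 to 6. It was lost as well with the methods' paired t-test (unadjusted p = 0.0616), with no filter on dim probes (limma adjusted p = 0.0121), with only the arrays compared (limma adjusted p = 0.0294) and without the 2 arrays of high negative controls (1.46, limma adjusted p = 0.0208).

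SERPINB6, an intracellular inhibitor of cathepsin G and other serine proteases, went the other way from SERPINE2 and SERPINB2. Its first probe had levels of 2.34, 2.48 and 2.69 (lowest, median and highest) in Ctl, 0.41, 0.58 and 0.79 in NaB, 2.42, 2.60 and 2.94 in Doxy and 0.22, 0.46 and 0.72 in DoxyNaB. Arrays with and without butyrate were far apart, and doxycycline left the pairs of groups overlapping. The change was -1.90 ± 0.17 in NaB/Ctl and -2.14 ± 0.25 in DoxyNaB/Doxy (n = 6 each; limma adjusted p = 4.38e-13 and 9.20e-14). The second probe changed by -2.05 ± 0.16 and -2.12 ± 0.17 (n = 6 each; limma adjusted p = 2.96e-14 and 1.83e-14), in 6 of 6 experiments as with the first probe.

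SERPINB5 (maspin), a clade B serpin that does not act as a classical protease inhibitor, had levels of 1.76, 1.91 and 2.10 (lowest, median and highest) in Ctl and 1.09, 1.30 and 1.68 in NaB. In Doxy they were 1.67, 1.99 and 2.32, and in DoxyNaB 0.91, 1.42 and 1.73. All NaB arrays lay below all Ctl arrays, while Doxy and DoxyNaB overlapped. The changes of -0.56 ± 0.12 and -0.65 ± 0.22 (n = 6 each; limma adjusted p = 6.37e-06 and 1.10e-06) were downward in 6 of 6 experiments and short of the 2-fold threshold. After median scaling they were -1.31 and -1.21 (limma adjusted p = 3.21e-05 and 9.52e-05) and passed it, whereas with normexp correction the NaB/Ctl change was -0.36 (limma adjusted p = 0.0146).

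ST14, the protease matriptase, had levels of 2.26, 2.36 and 2.96 (lowest, median and highest) in Ctl, 1.93, 2.07 and 2.74 in NaB, 2.23, 2.34 and 2.89 in Doxy and 2.09, 2.17 and 2.47 in DoxyNaB. The 4 groups overlapped, with the arrays of experiment 1 highest in each. Within an experiment NaB was lower than Ctl in 6 of 6, with a change of -0.30 ± 0.11 (n = 6; limma adjusted p = 0.00109), and the change was -0.18 ± 0.21 in DoxyNaB/Doxy (n = 6; limma adjusted p = 0.0293). The NaB/Ctl change was -0.03 with quantile normalization (limma adjusted p = 0.689), and without the experiment as a block its adjusted p was 0.0701. With normexp correction it was -0.17 (limma adjusted p = 0.235). Scaling to the median gave -1.05 (limma adjusted p = 1.63e-04), which passed the 2-fold threshold.

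The response to butyrate with doxycycline called the same 4 genes in the same directions, PLAU and SERPINB6 lower and SERPINE2 and SERPINB2 higher, against 30.6% of all probes tested that were called in DoxyNaB/Doxy. SERPINB2, well above background on 4 of 6 Doxy arrays, entered the tests through the butyrate groups, where it is high. It adds no support to this count or those that follow, and its call here was lost under the alternatives given above. At the adjusted p alone 8 of 9 members passed, against 67.03% of all probes, and ST14 did not. Arrays of the 2 groups did not overlap for 7 of 9 members in NaB/Ctl, against 43.1% of all probes, and for 4 of 9 in DoxyNaB/Doxy, against 41.5%. SERPINB8 entered the tests through NaB and Doxy, the higher group of each comparison. It adds no support to these counts or to that at the adjusted p in NaB/Ctl. The 2 comparisons use different arrays, since NaB/Ctl has no array in common with DoxyNaB/Doxy.

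**Figure D2:**
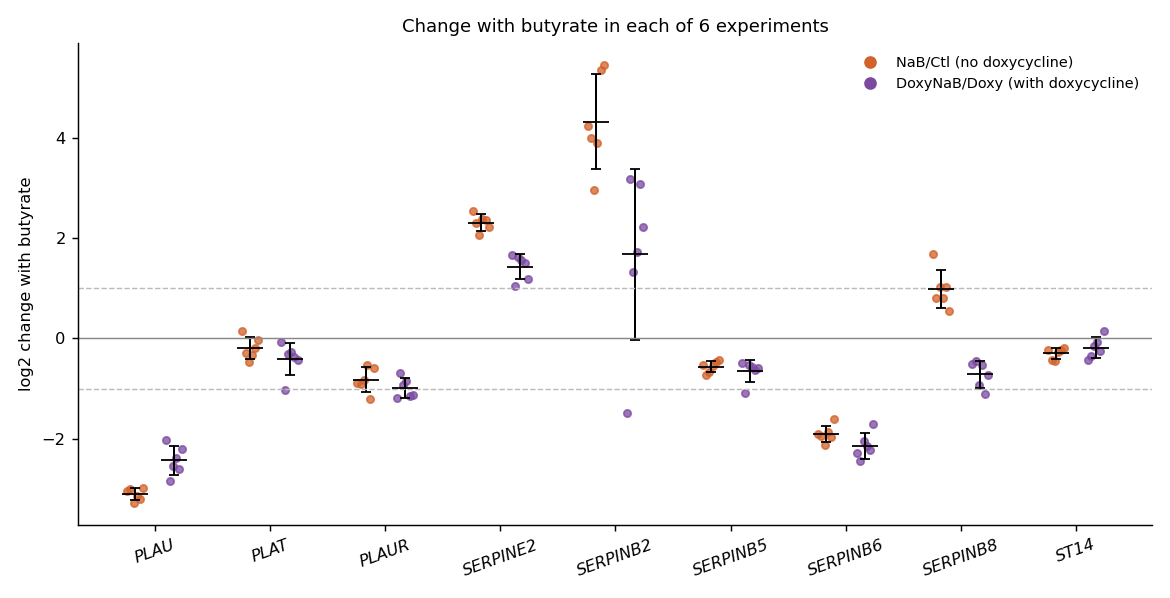
Log2 change with butyrate (y axis) of each gene (x axis), without doxycycline in orange and with it in purple; each point is 1 of 6 experiments, the bars give the mean and SD, and the dashed lines mark a 2-fold change. The orange and purple points keep apart for PLAU, SERPINE2 and SERPINB8, and the lowest purple point of SERPINB2 (-1.48) is experiment 1.

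Doxycycline alone called none of the 9 genes in Doxy/Ctl at an adjusted p under 0.01, against 0.501% of all probes tested; 3 of 9 had an unadjusted p under 0.05 in limma, against 12.6% of all probes, and 2 passed the methods' paired t-test with an unadjusted p, as did 1344 of 18969 probes. The lowest unadjusted p was that of PLAU, 0.00161. PLAU differed by 0.37 ± 0.12 (n = 6; limma adjusted p = 0.0810), higher in 6 of 6 experiments and with groups that did not overlap, which 0.949% of all probes showed. The other unadjusted p under 0.05 were those of SERPINB8, with 0.34 ± 0.35, and PLAUR, with 0.20 ± 0.18 (n = 6 each; limma adjusted p = 0.247 and 0.362).

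In cells with butyrate, doxycycline called 3 of 9 genes in DoxyNaB/NaB at an adjusted p under 0.01, against 2.48% of all probes tested, 0.617% higher and 1.87% lower. PLAU was higher with both agents than with butyrate alone by 1.04 ± 0.33 (n = 6; limma adjusted p = 2.42e-06), a fold of 2.06. SERPINE2 and SERPINB8 were lower, with differences of -0.70 ± 0.27 and -1.35 ± 0.25 (n = 6 each; limma adjusted p = 6.38e-05 and 1.77e-06), folds of 1.62 and 2.55. These differences held their direction in 6 of 6 experiments, and the groups did not overlap for the same 3 genes, against 1.66% of all probes. The second PLAU probe gave 0.95 ± 0.59 (n = 6; limma adjusted p = 0.0224), higher in 6 of 6. SERPINB2 had a difference of -1.80 ± 0.64 (n = 6), below 0 in 6 of 6 experiments, and its limma adjusted p of 0.0462 missed the threshold. With normexp correction it was -0.66 (limma adjusted p = 0.391), and without experiment 1 it was -1.80 and passed (limma adjusted p = 0.0075). PLAUR differed by 0.04, with a 95% interval of -0.15 to 0.23, SERPINB5 by 0.015, with -0.16 to 0.19, and SERPINB6 by -0.12, with -0.29 to 0.05.

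NaB/Ctl and DoxyNaB/NaB share the NaB arrays, so they are not independent. With both agents the level of PLAU remained below every array without butyrate. Within the third scan (experiments 2 to 4) the DoxyNaB/NaB difference of PLAU was 0.96 (limma adjusted p = 0.0440), and within the fourth (experiments 5 and 6) it was 1.00 (limma adjusted p = 0.0768). For SERPINE2 these values were -0.67 and -0.67 (limma adjusted p = 0.157 and 0.119) and for SERPINB8 -1.20 and -1.52 (limma adjusted p = 0.0042 and 0.0768), each with fewer arrays than the fit of all 6 experiments. The fits within these scans called 39 and 3 of all 18969 probes. With scaling to the median, PLAU (1.15, limma adjusted p = 0.0217) and SERPINE2 (-0.60, limma adjusted p = 0.858) lost their calls, and SERPINB8 lost its call with normexp correction (-0.08, limma adjusted p = 0.856) and with quantile normalization (-1.01, limma adjusted p = 0.0593).

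**Figure D3:**
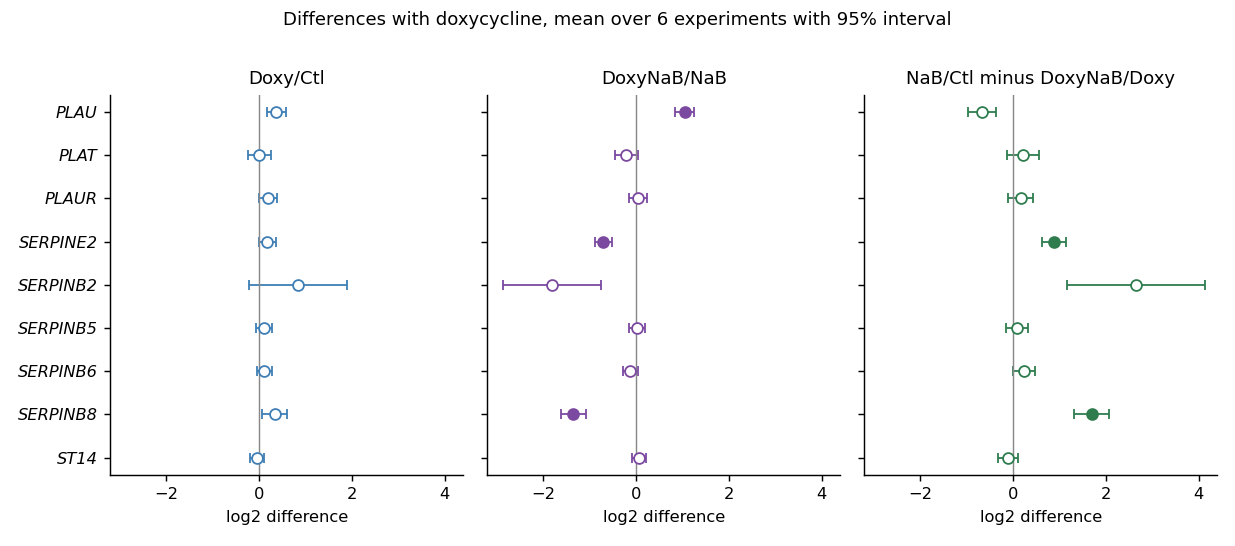
Log2 difference (x axis) of each gene (y axis) between Doxy and Ctl, between DoxyNaB and NaB, and between the responses NaB/Ctl and DoxyNaB/Doxy, with 95% intervals from limma; filled points passed an adjusted p of 0.01. PLAU, SERPINE2 and SERPINB8 are filled in the middle panel, SERPINE2 and SERPINB8 in the right one, and none in the left one.

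Whether the response to butyrate differed with doxycycline was tested as the NaB/Ctl change minus the DoxyNaB/Doxy change. SERPINE2, with 0.88 ± 0.27, and SERPINB8, with 1.69 ± 0.45 (n = 6 each; limma adjusted p = 4.82e-04 and 2.12e-05), passed an adjusted p of 0.01, as did 1.24% of all probes tested. Both differences were positive in 6 of 6 experiments. SERPINB8 entered the tests through NaB and Doxy, which raise this difference where they are high, so its call adds no support beside that share. PLAU had -0.67 ± 0.29 (n = 6; limma adjusted p = 0.0139), negative in 6 of 6, which missed the threshold, and the second PLAU probe had -0.60 ± 0.74 (n = 6; limma adjusted p = 0.508), negative in 4 of 6. The first PLAU probe passed without the 2 arrays of high negative controls (-0.72, limma adjusted p = 0.00116) and without experiment 2 (-0.77, limma adjusted p = 0.00283). It missed with normexp correction (-0.45, limma adjusted p = 0.514) and with quantile normalization (-0.94, limma adjusted p = 0.325). SERPINB2 had 2.64 ± 1.70 (n = 6; limma adjusted p = 0.0643), positive in 6 of 6, with experiment 1 at 5.71. Without that experiment it was 2.03 (limma adjusted p = 0.0549), and with normexp correction 0.74 (limma adjusted p = 0.601). For PLAT, PLAUR, SERPINB5, SERPINB6 and ST14 the differences lay between -0.12 and 0.24, with limma adjusted p of 0.419 to 0.837. Without the experiment as a block SERPINE2 lost its call (limma adjusted p = 0.0433) and SERPINB8 kept it (limma adjusted p = 0.0020). SERPINE2 also lost it with scaling to the median, at 0.69 (limma adjusted p = 0.983), where 9 of all 18969 probes were called. Within experiments 2 to 4 the difference was 0.83 for SERPINE2 and 1.52 for SERPINB8 (limma adjusted p = 0.396 and 0.0229), and within experiments 5 and 6 it was 0.95 and 1.71 (limma adjusted p = 0.143 for both). Those fits called 5 and 0 of all 18969 probes, so a missed threshold there says little on these genes.

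SERPINB8, an intracellular serpin that inhibits the proprotein convertase furin, was the member whose responses pointed in opposite directions with the main scaling. Its levels were -4.66, -3.52 and -3.35 (lowest, median and highest) in Ctl and -2.98, -2.75 and -2.49 in NaB. In Doxy they were -3.94, -3.27 and -3.10, and in DoxyNaB -4.46, -4.19 and -3.63. Every NaB array lay above every other array, and DoxyNaB overlapped with Doxy and with Ctl at the low end. Butyrate gave 0.98 ± 0.38 without doxycycline and -0.71 ± 0.27 with it (n = 6 each; limma adjusted p = 1.36e-06 and 5.76e-05), each in 6 of 6 experiments in its direction and each under the 2-fold threshold. Responses past the adjusted p with opposite signs were found for 23 of 18969 probes (0.121%). SERPINB8 entered the tests through NaB and Doxy, the higher group of each comparison, so this share lends it no support. With normexp correction the changes were 0.23 and 0.17 and the difference of the responses 0.06 (limma adjusted p = 0.930), with quantile normalization they were -0.25 and -1.455 with a difference of 1.21 (limma adjusted p = 0.211), and after median scaling 0.23 and -1.27 with 1.503 (limma adjusted p = 0.0221). Both responses passed the adjusted p with opposite signs under the main scaling. After median scaling the NaB/Ctl change did not pass (limma adjusted p = 0.298), and the signs were the same with normexp correction and with quantile normalization.

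**Figure D4:**
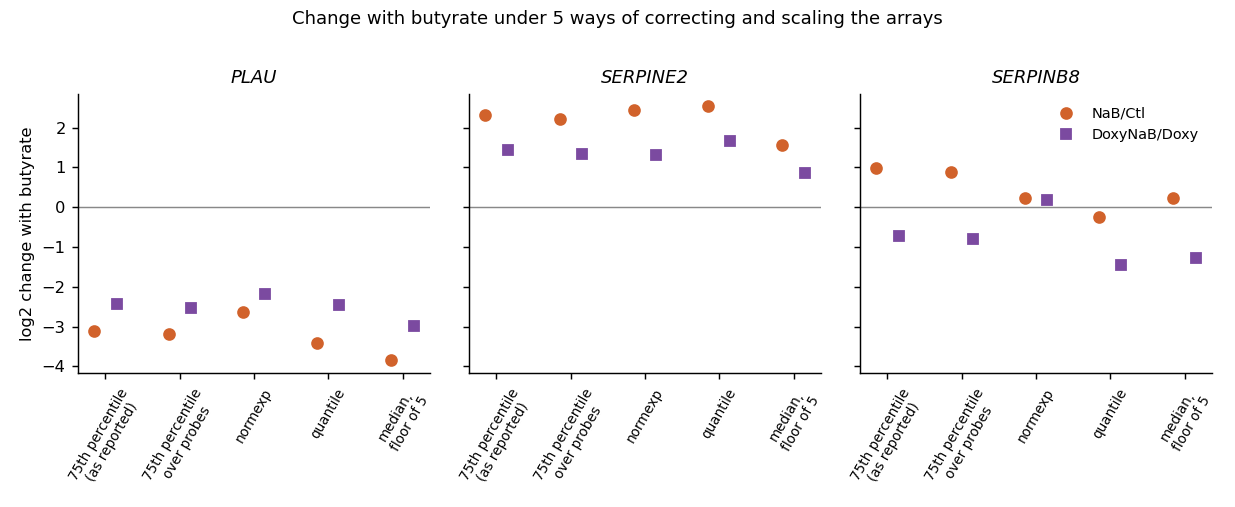
Log2 change with butyrate (y axis) without doxycycline (orange circles) and with it (purple squares) for PLAU, SERPINE2 and SERPINB8 under 5 ways of correcting and scaling the arrays (x axis). PLAU stays below 0 and SERPINE2 above 0 in all 5, whereas SERPINB8 moves across 0.

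The members could also be read against each other over the 24 arrays, with levels centred on the mean of each experiment, as a description only, since all of them share the same arrays and most of the variation is the butyrate contrast. PLAU and SERPINE2 had r = -0.97, PLAU and PLAUR r = 0.93, and PLAUR and SERPINB6 r = 0.95. SERPINB8 was the least tied to the others, with r between -0.33 and 0.45. Out of 14642 genes compared, those most like PLAU were FERMT1 (r = 0.994), SMAD3 (r = 0.994) and FLJ44342 (r = 0.990), and those most like PLAUR were TPM4 (r = 0.973), JDP2 (r = 0.970) and KLK6 (r = 0.970), each over 24 arrays. FERMT1 encodes kindlin-1, which activates integrins, and SMAD3 a transducer of TGF-beta signals.

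Of 17 other listed genes of the plasminogen system 12 were tested, and 7 were called in NaB/Ctl, 5 higher and 2 lower. Over all probes tested 31.7% were called, 65.3% of them higher, and the median change was 0.51 for the list against 0.17. Higher were the inhibitors SERPINI1 (neuroserpin, an inhibitor of PLAT) by 3.64 ± 0.51 and SERPINA5 (protein C inhibitor) by 3.33 ± 0.80. Also higher were LRP1, an endocytic receptor that clears activators bound to inhibitors, by 2.09 ± 0.54, IGF2R, which binds plasminogen and PLAUR, by 1.19 ± 0.30, and C9orf46, the plasminogen receptor now named PLGRKT, by 1.02 ± 0.13 (SD, n = 6; limma adjusted p for these 5 genes from 1.95e-12 to 3.55e-06). F12, the contact factor XII, changed by -2.13 ± 0.10 and S100A10, a plasminogen-binding partner of annexin A2, by -1.57 ± 0.21 (n = 6 each; limma adjusted p = 1.35e-15 and 6.20e-12). Plasminogen itself (PLG) was well above background on 0 of 24 arrays. In Ctl, SERPINA5 and LRP1 were well above background on 3 of 6 arrays each, and they entered the tests through groups where they are high. The size of their changes is uncertain, and their calls add no support to the count.

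With doxycycline present, butyrate called 7 of these 12 genes in DoxyNaB/Doxy, 4 higher and 3 lower, while 30.6% of all probes were called, 59.9% of them higher. The third lower gene was HRG, a plasminogen-binding plasma glycoprotein, which was well above background on 6 of 6 Doxy arrays but on 3 Ctl, 0 NaB and 1 DoxyNaB arrays. It entered the tests through Doxy alone, and no size is given for it. Its call adds no support to the count, and neither do those of SERPINA5 and LRP1. At an adjusted p under 0.01 in limma, 0 of 12 passed in Doxy/Ctl, in DoxyNaB/NaB and in the difference between the responses, and 3, 1 and 1 of them had an unadjusted p under 0.05, against 12.6%, 15.3% and 12.04% of all probes.

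Of 9 other clade B serpins 2 were tested, and both were higher in NaB/Ctl: SERPINB1, an inhibitor of neutrophil elastase, by 2.19 ± 0.30, and SERPINB9, the inhibitor of granzyme B, by 2.16 ± 0.27 (n = 6 each; limma adjusted p = 6.17e-12 and 1.13e-12). Over all probes tested 31.7% were called in NaB/Ctl, 65.3% of them higher. The other 7 clade B serpins did not enter the tests, being well above background on 1 to 12 of the 24 arrays. Among the genes around matriptase 8 of 10 were tested and 3 called in NaB/Ctl, against 31.7% of all probes, with a median change of -0.37. MST1, the macrophage-stimulating protein, was higher by 1.06 ± 0.08 (n = 6; limma adjusted p = 8.03e-10). MET, the receptor for hepatocyte growth factor, changed by -2.22 ± 0.12 (n = 6; limma adjusted p = 7.94e-14). EPCAM, an epithelial adhesion molecule that matriptase can cleave, changed by -1.45 ± 0.40 in the 5 experiments with an unflagged value (limma adjusted p = 3.61e-05). In DoxyNaB/NaB 1 of the 8 passed, against 2.48% of all probes. It was the protease-activated receptor gene F2RL1, with a difference of -0.80 ± 0.45 in 5 experiments (limma adjusted p = 0.0029).

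**Figure D5:**
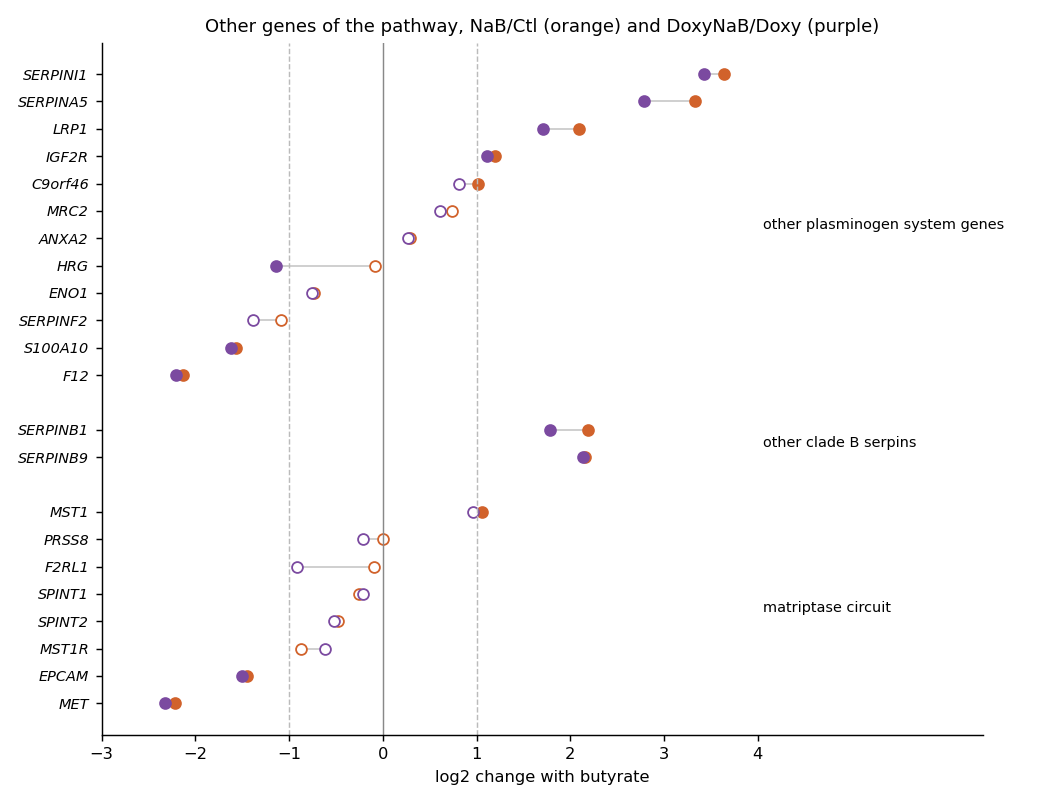
Log2 change with butyrate (x axis) of the tested genes of the 3 other lists (y axis), without doxycycline in orange and with it in purple; filled points passed a 2-fold change and an adjusted p of 0.01, and the dashed lines mark a 2-fold change. SERPINI1 and SERPINA5 are at the right end and F12 and MET at the left end.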

How the data were processed

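RNA of 24 samples, 4 treatments in 6 experiments that the methods call biological replicates, was hybridised to Agilent Human GE 4x44K v2 arrays of 1 colour. The deposited files hold the intensity of each spot from Agilent Feature Extraction 9.5.3.1 (protocol GE1-v5_95_Feb07), which the authors left background-subtracted and detrended within an array but not scaled between arrays. Here outlier-flagged and control spots were left out, the log2 of the processed signal was set relative to the 75th percentile of the array, and the spots of a probe were averaged. Where a gene had a second probe, the brighter of the pair on average stood for it. A probe was tested when well above background on all 6 arrays of a treatment, with at least 3 values per group, which 18969 of 34127 probes were.

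All 24 arrays were fitted together in limma 3.58.1 (R 4.3.3) with the experiment as a block, since the study paired its test by experiment, with Benjamini-Hochberg adjustment over all probes tested. Same-numbered arrays deviated together from their group means (36 pairs, median r 0.60, lowest -0.22, 1 pair under 0.1). The members and gene lists were chosen with earlier results of these data known. Called means a fold over 2 and an adjusted p under 0.01 for the butyrate comparisons, and an adjusted p under 0.01 for the others. Named were the members, the probes most like PLAU and PLAUR, and up to 5 called genes per direction of each list. 1 gene of the lists is not reported here and was left out of their counts. On data simulated for NaB/Ctl, 93 of 100 changes of 1.5 on the log2 scale were called among 18326 probes, and for the difference of the responses 166 of 200. Alternatives covered background correction (normexp, offset 50), scaling, filters, the block, thresholds, scans, the methods' test and left-out experiments. Arrays carry no read depth, and their number limits the precision.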

Additional observations from a re-analysis of the deposited data

Results flagged for a closer look

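The PLAT level in the DoxyNaB array of experiment 2 was -1.64, apart from the nearest of the other 5 DoxyNaB arrays at -1.06, and this array also had the highest negative controls of the 24. The ST14 level in the NaB array of experiment 1 was 2.74, against 2.13 for the nearest of the other 5 NaB arrays, and ST14 was highest in experiment 1 under every treatment. These are 2 of 44 groups of 6 arrays examined, and chance alone singles out about 1 in 20 such groups.

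The butyrate response differed with doxycycline for SERPINE2, by 0.88 on the log2 scale, and for SERPINB8, by 1.69, in the limma test of the difference itself. SERPINE2 rose in both settings, whereas SERPINB8, under the main scaling, was higher with butyrate alone and lower with butyrate added to doxycycline. The SERPINB8 signs were not opposite after normexp correction (difference 0.06, limma adjusted p = 0.930) or quantile normalization (1.21, limma adjusted p = 0.211). Both methods left SERPINE2 called. The SERPINB8 probe was well above background on only 5 Ctl and 4 DoxyNaB arrays of 6. Median scaling, which called 9 of all 18969 probes, removed both calls (limma adjusted p = 0.983 for SERPINE2 and 0.0221 for SERPINB8). Dropping the experiment block removed that of SERPINE2 (limma adjusted p = 0.0433).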

How the results depend on the processing

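Of 113 recomputed counts of called members 97 stayed within 1.5 times the main count and 16 did not, and of 1218 recomputed changes 1111 kept their direction and side of the threshold, 42 passed it newly, 40 no longer passed it and 25 changed sign. Alternatives that altered only thresholds, filters or the test, or dropped the block, left the log2 changes of members as they were. No sign could change in those, so the tally overstates how far directions were put to the test. In NaB/Ctl, 7 members were called with scaling to the median and 8 with no fold threshold, against 4. All probes called there numbered 7766 and 12947 of 18969, against 6013. In DoxyNaB/Doxy, 7 members were called with a fold over 1.5 and 8 with no fold threshold, against 4. All probes called there numbered 9589 and 12714 of 18969, against 5801. In Doxy/Ctl the methods' test at its unadjusted p called 2, PLAU and SERPINE2, against 0. In DoxyNaB/NaB, where 3 were called, scaling to the median and experiments 2 to 4 alone each left 1, SERPINB8, and the methods' test with adjusted p and experiments 5 and 6 alone each left 0. Of all 18969 probes these settings called 45, 39, 25 and 3, in that order, so few members could pass. For the difference of the responses, where 2 were called, normexp correction and quantile normalization each left 1, SERPINE2, and 0 were left with scaling to the median, with the methods' test with adjusted p, within experiments 2 to 4 and within experiments 5 and 6. The settings that left 0 called 9, 0, 5 and 0 of all 18969 probes, in that order. A member count of 0 was thus fixed in advance, or nearly so, and says nothing on SERPINE2 or SERPINB8. Without the experiment as a replicate block the count for the difference was 1, SERPINB8. That fit also lost SERPINB2 in DoxyNaB/Doxy (limma adjusted p = 0.0116) and SERPINE2 in DoxyNaB/NaB (limma adjusted p = 0.0100). Leaving out 1 experiment at a time gave 4 to 5 called members in NaB/Ctl, 3 to 4 in DoxyNaB/Doxy, 0 in Doxy/Ctl, 3 to 4 in DoxyNaB/NaB and 2 to 3 for the difference. The SERPINB2 call in DoxyNaB/Doxy was lost without any one of experiments 2 to 6 (1.37 to 1.74). The cause of these shifts was not tested.

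Changes of sign were found for SERPINB8 in NaB/Ctl with quantile normalization (-0.25), in DoxyNaB/Doxy with normexp (0.17) and in Doxy/Ctl with normexp (-0.0246). For ST14 they were found in DoxyNaB/Doxy with quantile normalization (0.0526), in Doxy/Ctl with normexp (0.0628) and in experiments 5 and 6 (0.011), in DoxyNaB/NaB with normexp (-0.069) and in the difference of the responses with normexp (0.13). PLAT in Doxy/Ctl, near 0 throughout, changed sign with normexp (-0.0625), quantile normalization (-0.0086), scaling to the median (-0.0778), the percentile over probes (-0.0061), in experiments 2 to 4 (-0.11) and without experiment 5 (-0.0087) or 6 (-0.0597), in a range of -0.0597 to 0.0435 over left-out experiments. PLAUR in DoxyNaB/NaB did so with normexp (-3e-04), in experiments 5 and 6 (-0.17), without the arrays of high negative controls (-0.0258) and without experiment 2 (-0.0089, with 0.1201 as the other end of that range). SERPINB5 in DoxyNaB/NaB did so without experiment 3 (-0.0513, other end 0.0798) and the second SERPINB6 probe in experiments 5 and 6 (-0.0409). In the difference of the responses, scaling to the median changed the sign of PLAUR (-0.0276), SERPINB5 (-0.10) and the second SERPINB6 probe (-0.13), the last also without experiment 2 (-0.0116, other end 0.1097).

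The number of probes called also moved. With normexp correction 3001 were called in NaB/Ctl against 6013, and 3627 against 5801 in DoxyNaB/Doxy. In DoxyNaB/Doxy 59.9% of the called probes were higher with the main scaling, 46.6% with quantile normalization and 25% with scaling to the median, where the median of all probes was -0.46 against 0.10. In DoxyNaB/NaB the share was 24.8%, and 42.2% with scaling to the median, over 471 and 45 called probes, and for the difference of the responses it was 82.6% of 235 and 11.1% of 9. The percentile over probes was an alternative chosen after seeing the data. Dim probes limit the fold sizes of SERPINB2 and SERPINB8, whose levels were at background on some arrays.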
